A study of Mus musculus with 42 samples.

Results

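The lymph nodes on the operated side of mice with a knee implant were compared between day 14 and day 7. The members were the 6 libraries titled Implant in the node count table, 3 from each day, out of 18 node libraries and 42 libraries in the series. All expressed genes were used, which were 18312 of the 54752 genes listed. The animals were C57BL/6 mice, wild type in genotype, and the surgery was knee arthroplasty, in which joint surfaces are replaced by a prosthesis. The Implant day 14 nodes came from mice 25, 26 and 27 and the Implant day 7 nodes from mice 7, 8 and 9, so no animal gave nodes on both days. The ContraImplant nodes came from the other side of the same 6 mice, and the NoImplant nodes from mice 34, 35 and 36 on day 14 and mice 16, 17 and 18 on day 7. Count columns mark Implant nodes as with surgery and both other groups as without it. The labels used here give neither the animals' ages nor which node was taken, and nodes from before day 7 were not analysed here.

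A lymph node drains a tissue and is the place where antigen carried from it meets B and T cells. In a reacting node lymphocytes divide, naive cells enter through high endothelial venules, and stromal cells and macrophages in the sinuses hold and guide the traffic. Regulatory T cells, marked by Foxp3, restrain such responses, and interferon-stimulated genes record exposure of the node's cells to interferon.

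The data were counts per gene from bulk RNA. Library totals were 27997692, 25510728 and 24057399 counts in the Implant day 14 nodes, against 23475923, 22041900 and 25178761 in the Implant day 7 nodes. Levels below are in CPM, the count of a gene scaled to a common library size. The tissue label was checked against its defining markers, and those given here were present in all 6 Implant libraries. The B cell gene Ms4a1 lay at 438.9 to 646.7 CPM, the T cell genes Cd3e and Cd4 at 135 to 261 CPM, and the stromal chemokine genes Ccl21a, Ccl19 and Cxcl13 at 42.8 to 421 CPM. The venule genes Glycam1 and Madcam1 lay at 19.1 to 2007 CPM.

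No gene passed the main test between Implant day 14 and day 7, while the genes of dividing cells stood lower at day 14 in every member of their list. In the fit over all 18 node libraries, edgeR's quasi-likelihood test called 0 of 18312 genes (0%) at an adjusted p below 0.05, and the smallest adjusted p was 0.189. At an unadjusted p below 0.05 there were 840 genes higher and 726 genes lower at day 14, or 4.59% and 3.96% of those tested. Of the 18312 genes, 50.6% had a positive log2 fold change, so neither direction prevailed over the transcriptome.

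Other fits gave other counts of calls. Fitted on the 6 Implant libraries alone, edgeR called 178 of 17003 genes (1.05%), 51 higher and 127 lower at day 14, and DESeq2 called 53 genes (0.289%), 36 higher and 17 lower. The common coefficient of variation between replicates was 11.5% in the Implant nodes, 24.8% in the ContraImplant nodes and 20.2% in the NoImplant nodes, against 19.7% over all 18 libraries. Of the 178 genes, 156 had an unadjusted p below 0.05 in the 18-library fit, all 178 had the same sign there, and 29 were among DESeq2's 53. Every fit takes this fold change from the same 6 Implant libraries. The shared sign was thus fixed in advance, and none of these overlaps is independent support. Below, a gene is said to have risen or fallen only where the 6-library fit called it, with that fit named. All other values are given as levels with the interval of the 18-library fit.

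The precision was enough to bound most genes. The 95% interval of the day 14 over day 7 ratio lay within a factor of 2 either way for 13912 genes, or 76% of those tested. On the first principal component of the 6 Implant libraries, which carried 32.7% of their variance, the day 14 libraries stood at −8.86, −29.3 and −25.5 and the day 7 libraries at 9.39, 35.1 and 19.1. The 2 days did not overlap on that axis.

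**Figure D1:**
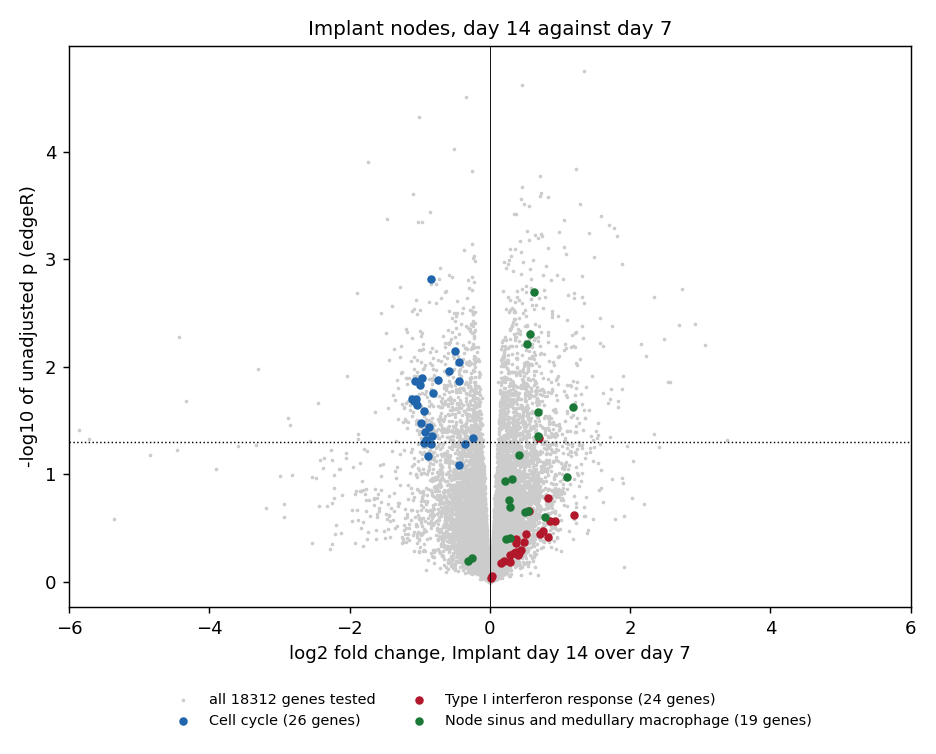
Each point is 1 gene, with the log2 fold change of Implant day 14 over day 7 on the x axis and −log10 of the unadjusted edgeR p on the y axis; the dotted line marks p of 0.05, and 2 genes lie outside the axis. The 26 cell cycle genes all sit left of 0, the 24 type I interferon genes right of 0 and mostly under the line, and 17 of the 19 node macrophage genes right of 0.

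The list of 26 cell cycle genes covered DNA replication, its nucleotide supply and mitosis. All 26 had a negative log2 fold change at day 14, against 49.4% of all genes tested, and 21 of them had an unadjusted p below 0.05, against 3.96% of all genes. The ranges of the 2 days did not overlap for any of the 26, against 9.68% of all genes with day 14 below day 7 (and 9.67% with day 14 above). The median log2 fold change of the list was −0.88, against 0.00 over all genes. It ran from −1.04 to −0.79 when each Implant library was left out in turn. The count at an unadjusted p below 0.05 was 9 without replicate 1 of day 14. None passed the main test, and 17 fell in the 6-library fit, in which 0.747% of all genes were called lower. In bulk tissue, fewer dividing cells and less of each RNA per cell cannot be told apart. A separate list of replication-dependent histone genes, 9 of them tested, had a median of 0.27, which was −0.15 without replicate 3 of day 14. Of these, 5 were positive, against 50.6% of all genes, and 4 negative. At an unadjusted p below 0.05 there was 1 positive gene, against 4.59% of all genes, and 2 negative, against 3.96%.

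Tyms, which makes thymidylate for DNA synthesis, had the smallest p of the list. It stood at 9.71, 10.9 and 11.6 CPM in the day 14 nodes, against 16.0, 21.2 and 20.2 CPM in the day 7 nodes. Every day 14 library was below every day 7 library. The log2 fold change was −0.84 ± 0.22 (SE), with a 95% interval of −1.30 to −0.38 and an edgeR adjusted p of 0.381. In the 6-library fit Tyms fell at an adjusted p of 0.0321, and it was the 1 member of the list that DESeq2 called, against 0.0928% of all genes called lower by that tool.

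The replication helicase genes came next. Mcm3 had 88.6, 88.5 and 103.5 CPM at day 14, against 117, 138.5 and 140.5 CPM at day 7. Mcm2 stood at 79.3, 79.1 and 92.3 CPM, against 105, 116 and 119 CPM at day 7. Both are subunits of the complex that opens DNA at replication forks, and both fell in the 6-library fit (edgeR adjusted p of 0.0416 for Mcm3 and 0.0405 for Mcm2). Mcm5, of the same complex, had 76.4, 83.0 and 93.4 CPM at day 14, against 111, 134 and 135 CPM at day 7, and its log2 fold change was −0.59 with a 95% interval of −1.02 to −0.16.

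Mki67, whose protein coats mitotic chromosomes and is used to count dividing cells, and Top2a, which untangles replicated DNA, were added after their values were seen. Mki67 had 51.7, 57.7 and 76.1 CPM at day 14, against 110, 140 and 144 CPM at day 7, a ratio of 0.47 with a 95% interval of 0.253 to 0.876. Top2a had 63.6, 68.8 and 81.1 CPM at day 14, against 115, 154 and 157 CPM at day 7. In both genes the highest day 14 library stayed under the lowest day 7 library. The 17 genes that fell in the 6-library fit were Mki67, Top2a, Ccnb2, Aurka, Aurkb, Plk1, Birc5, Cenpe, Kif11, Kif20a, Mcm2, Mcm3, Mcm5, Rrm2, Tyms, Cdc20 and Foxm1.

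Where the Implant levels lay among the nodes without surgery was read from the same libraries. The mean log2 CPM over the 26 genes was 4.32, 4.45 and 4.64 in Implant day 14 nodes and 4.99, 5.40 and 5.41 in Implant day 7 nodes. It was 5.01, 4.47 and 3.93 in NoImplant day 14 nodes and 4.42, 4.48 and 3.96 in NoImplant day 7 nodes. For 25 of the 26 genes the 3 Implant day 14 libraries lay inside the range of the 6 NoImplant libraries, against 35.2% of all genes. For 12 of the 26 the 3 Implant day 7 libraries lay above all 6 NoImplant libraries, against 12.4% of all genes.

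The same days in the other groups gave other values. The median of the list was −0.34 in ContraImplant nodes and 0.24 in NoImplant nodes, with 0 of 26 genes at an unadjusted p below 0.05 in either. Of all genes, 2.79% were positive and 2.51% negative at such a p in ContraImplant nodes, and 10% and 8.86% in NoImplant nodes. All 26 were negative in ContraImplant nodes, where 58.4% of all genes were, and 5 of 26 in NoImplant nodes, where 48.3% of all genes were. In ContraImplant nodes the level was 4.39, 4.27 and 4.35 at day 14 and 4.11, 3.96 and 5.35 at day 7, so 1 of the 3 day 7 nodes was as high as the Implant ones. That library came from mouse 9, and its summed level of skeletal muscle genes was 857 CPM. Its mean log2 CPM over the germinal centre B cell list was 5.42, the highest of the 18 libraries. Replicate 2 of NoImplant day 7 had a summed muscle level of 1430 CPM, with a cell cycle level of 4.48. The part of either list in the cell cycle level was not tested. The change in Implant nodes minus that in NoImplant nodes had a median of −1.15 over the list and was negative for all 26, against 50.3% of all genes. By the edgeR test of this difference, 0 of 26 genes passed and 18 had an unadjusted p below 0.05 with a negative value, against 2.73% of all genes. Against ContraImplant nodes all 26 were negative, against 43.6% of all genes, and 1 of 26 had such a p, against 0.699% of all genes.

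**Figure D2:**
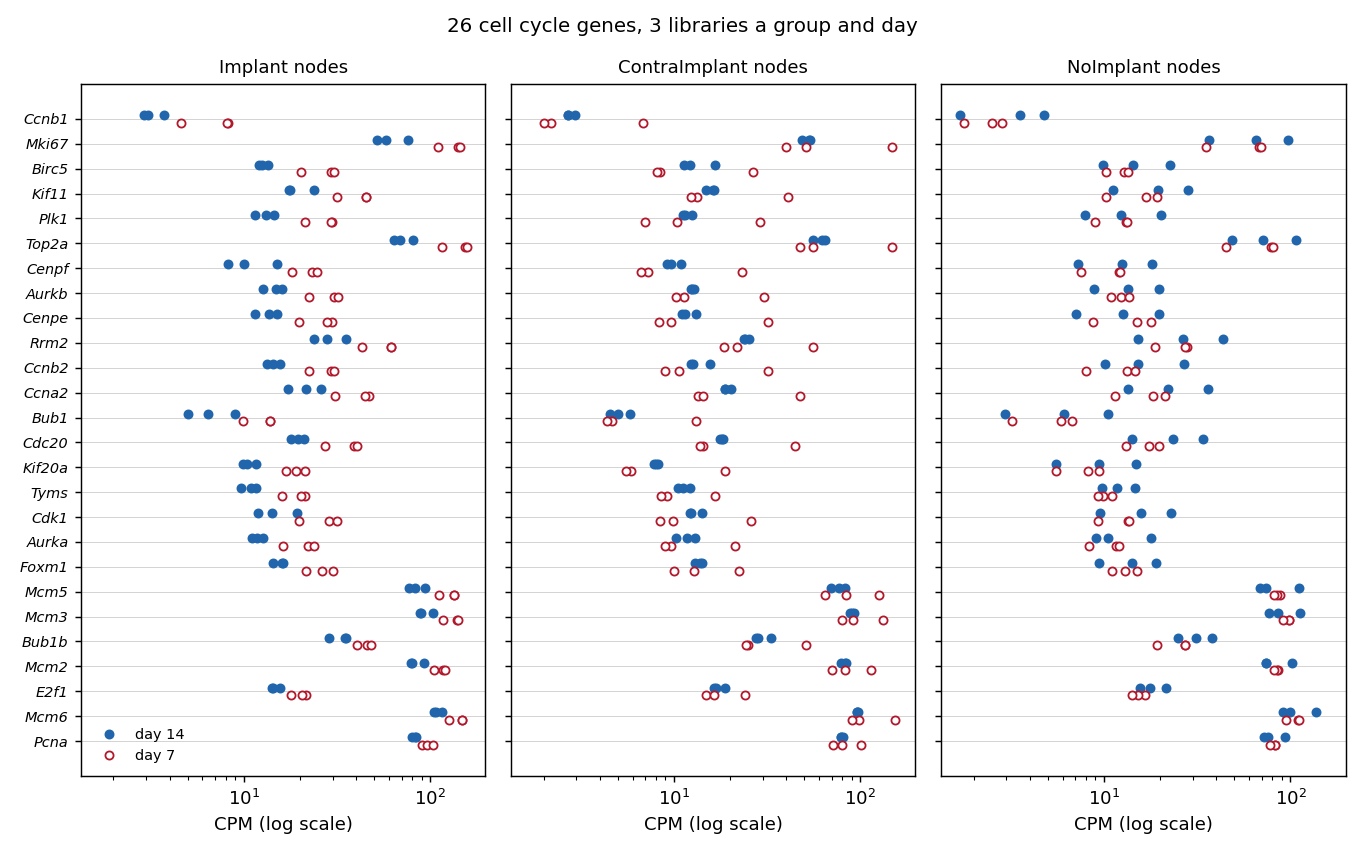
CPM on a log axis of the 26 cell cycle genes, with 1 point per library, filled for day 14 and open for day 7, in Implant, ContraImplant and NoImplant nodes. In the Implant panel the filled points lie left of the open points in every row, while in the other panels the 2 days overlap.

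Promoters of 5 of these genes are shown because the 26 genes stood lower together and because many cell cycle genes are known to share a few promoter motifs. RefSeq windows (GRCm38.p6) of 300 bases, from 250 before to 50 after the annotated start, were matched by symbol for 22 of the 26 genes. The motifs searched on both strands were the E2F site in the forms TTTCCCGC and TTTGGCGC, which binds the E2F factors of S phase, the CHR (TTTGAA), which binds the DREAM and MuvB complexes of late cell cycle genes, and the CCAAT box (CCAAT), which binds NF-Y. No pattern contains another. The 150 bases before the start are printed 5′ to 3′, with matches on either strand in capitals. Mcm2, Mcm3 and Mcm5 were named above by rule, and Top2a and Cdc20, which activates the anaphase ubiquitin ligase, were chosen after their values and motifs were seen.
Mcm2, chr6:88898781-88898930, minus strand: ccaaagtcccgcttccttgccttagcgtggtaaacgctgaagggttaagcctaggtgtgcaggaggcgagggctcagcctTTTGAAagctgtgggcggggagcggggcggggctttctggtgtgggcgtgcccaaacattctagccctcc
Mcm3, chr1:20820313-20820462, minus strand: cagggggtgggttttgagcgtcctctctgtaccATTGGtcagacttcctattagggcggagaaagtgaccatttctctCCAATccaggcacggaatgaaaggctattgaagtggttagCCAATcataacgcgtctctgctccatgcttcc
Mcm5, chr8:75109359-75109508, plus strand: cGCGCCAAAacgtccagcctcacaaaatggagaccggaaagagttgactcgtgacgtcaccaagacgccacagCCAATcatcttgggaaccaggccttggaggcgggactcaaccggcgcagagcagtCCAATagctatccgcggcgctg
Top2a, chr11:99024190-99024339, minus strand: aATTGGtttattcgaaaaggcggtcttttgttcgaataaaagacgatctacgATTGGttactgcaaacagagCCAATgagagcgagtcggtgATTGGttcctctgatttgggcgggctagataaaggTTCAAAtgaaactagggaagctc
Cdc20, chr4:118437344-118437493, minus strand: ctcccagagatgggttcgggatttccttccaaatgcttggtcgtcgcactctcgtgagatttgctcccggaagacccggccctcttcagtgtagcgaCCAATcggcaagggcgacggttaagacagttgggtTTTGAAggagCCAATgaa

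In the printed stretches Mcm2 held a CHR match, Mcm3 and Mcm5 held CCAAT matches, and Mcm5 held an E2F match at the far end. Top2a and Cdc20 held both CCAAT and CHR matches. Over the whole windows, 19 of the 22 genes held a CCAAT match, against 37.4% of 32851 windows of all genes. A CHR match was in 11 of the 22, against 17.9% of all windows, and an E2F match in either form in 3 of the 22, against 1.56%. These are matches of letters in 1 window per gene and say nothing of a factor's presence.

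Several genes known in regulatory T cells were lower at day 14, while genes known in follicular helper T cells, which share the list, went both ways. Of its 16 genes, 11 had a negative log2 fold change, against 49.4% of all genes, with a median of −0.27. An unadjusted p below 0.05 was reached by 5, all negative and all known in regulatory T cells, against 3.96% of all genes. The ranges of the days did not overlap for 8 of the 16 with day 14 lower, against 9.68% of all genes, and for 1 with day 14 higher, against 9.67%. Ikzf2, the transcription factor Helios (chr1:69531214-69687245, mm10), had 56.5, 56.4 and 58.3 CPM at day 14, against 73.5, 73.9 and 70.0 CPM at day 7. Its log2 fold change was −0.35 ± 0.06 (SE), the edgeR adjusted p was 0.189 and DESeq2's was 0.000843. All 3 day 14 libraries lay below all 3 day 7 libraries.

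Ctla4, an inhibitory receptor, had 23.8, 21.7 and 20.2 CPM at day 14, against 33.1, 34.5 and 30.5 CPM at day 7. Foxp3, the lineage factor, had 34.8, 32.8 and 38.5 CPM, against 49.1, 48.7 and 40.2 CPM at day 7, so its highest day 14 library came close to its lowest day 7 library. Tigit, another inhibitory receptor, had 8.94, 9.23 and 9.88 CPM at day 14, against 13.2, 15.7 and 14.2 CPM at day 7. Ikzf2, Ctla4, Tigit and the interleukin 2 receptor chain gene Il2ra fell in the 6-library fit, while Foxp3 did not pass there. The 5 positive members, named after their values were seen, had log2 fold changes of 0.02 for Cxcr5, the receptor that guides helper T cells into follicles, 0.07 for Cd40lg, 0.10 for Tox2, 0.12 for Maf and 0.14 for Il4. Cxcr5 had 203.6, 242 and 272 CPM at day 14 and 232.5, 241 and 235 CPM at day 7, which overlapped. Il21, a cytokine of follicular helper cells that was also named after its values were seen, had a log2 fold change of −1.13 with overlapping levels.

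The list's median was −0.16 in ContraImplant and 0.06 in NoImplant nodes, and 5 of the 16 genes had an unadjusted p below 0.05 and were negative in ContraImplant nodes, against 2.51% of all genes. In ContraImplant nodes the log2 fold change of Ctla4 was −0.53, that of Tigit −0.54 and that of Il2ra −0.47, beside the Implant values of −0.58, −0.62 and −0.44. In NoImplant nodes these 3 genes had −0.17, 0.18 and 0.11. For Ikzf2 the Implant change minus the NoImplant change was −0.34, with a 95% interval of −0.52 to −0.16 and an edgeR adjusted p of 0.927. Its log2 fold change in ContraImplant nodes was −0.18, without overlap of the days there. The Implant change of Ikzf2 minus the ContraImplant change was −0.17, with a 95% interval of −0.35 to 0.01.

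The bulk of the B and T cell genes did not differ detectably, within narrow limits. The medians were 0.01 for 17 genes of resting B cells and 0.01 for 17 T cell genes, and for all 34 the 95% interval of the ratio lay within a factor of 2. Cd4 had 261, 242 and 213 CPM at day 14 and 233.5, 222 and 183 CPM at day 7. The Cd4 levels overlapped between the days.

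Genes of germinal centre B cells, where antibody genes are mutated and selected, had a median of −0.02 over 15 members. Nek2, a mitotic kinase on that list, had 8.03, 9.23 and 9.80 CPM at day 14, against 15.7, 22.8 and 22.4 CPM at day 7, and fell in the 6-library fit. Efnb1, an ephrin ligand, had 34.6, 30.3 and 35.5 CPM at day 14, against 27.6, 24.0 and 27.3 CPM at day 7. The other 13 members had overlapping levels. Antibody constant region genes overlapped between the days for all 12 members. Their summed level was 7840, 11000 and 14300 CPM at day 14 and 12700, 6280 and 16000 CPM at day 7. For 3 of the 12 the 95% interval lay within a factor of 2, and the counting of these near-identical genes is uncertain. Plasma cell and secretion genes had a median of −0.03 over 20 members, 17 of them bounded within a factor of 2.

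All 24 genes of the type I interferon response had a positive log2 fold change at day 14, against 50.6% of all genes. Their median was 0.42, but 1 library stood above the others. The mean log2 CPM over the list was 4.78, 5.59 and 4.14 in day 14 nodes, against 4.41, 4.74 and 4.25 in day 7 nodes. Replicate 2 of day 14 was the highest of the 6 libraries for 23 of the 24 genes, against 15.1% of all genes, and replicate 3 of day 14 was the lowest on the list's mean. Without replicate 2 the median was −0.03. Of the list, 1 gene had an unadjusted p below 0.05, against 4.59% of all genes.

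That gene was Bst2, which tethers budding virus and also marks plasmacytoid dendritic cells in the mouse. It had 199.9, 188 and 119 CPM at day 14, against 97.7, 108 and 105 CPM at day 7. Its ranges did not overlap, and the log2 fold change was 0.71 with a 95% interval of 0.01 to 1.40. Usp18, a brake on interferon signalling, had 38.7, 53.8 and 27.7 CPM at day 14 and 26.9, 31.6 and 23.1 CPM at day 7, which overlapped. In NoImplant nodes the list's median was −0.82, and there replicate 3 of day 7 stood at a mean log2 CPM of 6.72, against 4.21 and 4.26 in its 2 replicates. The interferon-gamma response list had a median of −0.01 in Implant nodes, with 10 genes in each direction.

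**Figure D3:**
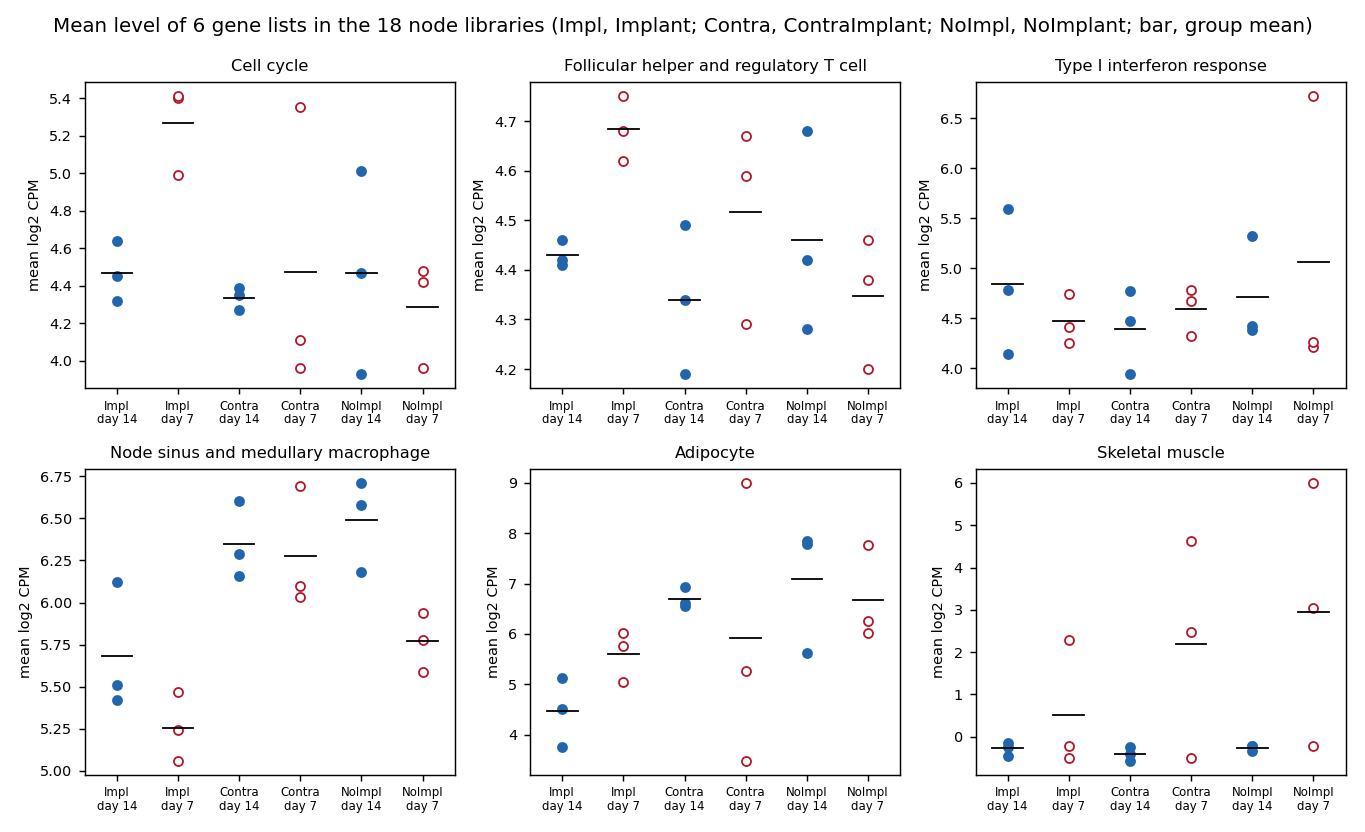
Mean log2 CPM of 6 gene lists in each of the 18 node libraries, filled for day 14 and open for day 7, with a bar at each group's mean. Implant day 14 lies below Implant day 7 without overlap for the cell cycle list and the helper and regulatory T cell list, single libraries stand out in the interferon and macrophage panels, and the muscle list is high in 5 of the 9 day 7 libraries.

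Macrophage genes of the node's sinuses and medulla tended the other way. Of 19 genes, 17 had a positive log2 fold change, against 50.6% of all genes, with a median of 0.51. An unadjusted p below 0.05 was reached by 6 of them, all positive, against 4.59% of all genes. C1qb, a chain of the complement starter C1q that such macrophages make, had 166, 223 and 148 CPM at day 14, against 127, 106 and 115 CPM at day 7. Its log2 fold change was 0.63 ± 0.17 (SE), and the edgeR adjusted p was 0.402. C1qc and C1qa, which encode the other chains, had 0.58 and 0.52. Cd209d, a lectin gene of the list whose family is similar in sequence, had 15.5, 17.4 and 4.42 CPM at day 14 and 5.60, 6.55 and 4.28 CPM at day 7, which overlapped.

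Replicate 2 of day 14 was again the highest Implant library, for 18 of the 19 macrophage genes, and without it the median was 0.19. The NoImplant nodes had a median of 0.70 between the same days, with 14 of 19 genes at an unadjusted p below 0.05 and positive (10% of all genes), and the ContraImplant nodes −0.07. In level, the mean log2 CPM of the list was 5.42, 6.12 and 5.51 in Implant day 14 nodes and 5.47, 5.06 and 5.24 in Implant day 7 nodes. It was 6.18, 6.58 and 6.71 in NoImplant day 14 nodes and 5.94, 5.78 and 5.59 in NoImplant day 7 nodes. By the edgeR test of the difference between the Implant and NoImplant changes, 0 of the 19 genes passed. The difference was negative for 17 of the 19, against 50.3% of all genes, with a median of −0.17, and positive for 2, against 49.7%. At an unadjusted p below 0.05 there was 1 negative gene, against 2.73% of all genes, and 0 positive, against 2.3%.

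Genes of monocytes and recruited macrophages had a median of 0.28, with 16 of 20 positive, against 50.6% of all genes. Lyz2, a lysozyme of myeloid cells, had 1525, 1793 and 1665 CPM at day 14, against 1261, 1097 and 1148 CPM at day 7, and rose in the 6-library fit at an adjusted p of 0.0324. Apoe, which carries lipids and is abundant in macrophages, had 3732, 3940 and 3215 CPM at day 14, against 2788, 2169 and 2650 CPM at day 7. Their log2 fold changes in NoImplant nodes were 0.60 and 0.51, beside the 0.51 and 0.52 in Implant nodes. Neutrophil genes had a median of 0.63 over 14 members, which was 0.41 without replicate 2 of day 7 and 0.97 without replicate 1 of day 7. Mast cell genes had 0.55 over 11 members, of which 10 were highest in replicate 2 of day 14. That median was 0.23 without this library and 0.86 without replicate 1 of day 14. In NoImplant nodes the mast cell median was 1.23, with 11 of 11 genes positive, against 51.7% of all genes. There 9 of 11 had an unadjusted p below 0.05 and were positive, against 10% of all genes. The mast cell median was −0.06 in ContraImplant nodes. The neutrophil medians were 0.56 in ContraImplant and 0.62 in NoImplant nodes. Few reads lay behind the neutrophil list, whose summed level was 150, 120 and 123 CPM at day 14 and 117, 77.9 and 91.5 CPM at day 7.

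Of the dendritic cell list 4 of 18 genes had an unadjusted p below 0.05, all of them higher at day 14, against 4.59% of all genes. Cd209a, a lectin of monocyte-derived dendritic cells, had 7.44, 6.56 and 5.17 CPM at day 14, against 3.14, 2.11 and 2.60 CPM at day 7. Its log2 fold change was 1.29 with a 95% interval of 0.70 to 1.88, and it rose in the 6-library fit and by DESeq2. Siglech, a receptor of plasmacytoid dendritic cells, had 86.5, 56.6 and 37.3 CPM at day 14, against 29.1, 26.0 and 24.6 CPM at day 7. Its ranges did not overlap, though the day 14 libraries spread widely, and it did not pass in either fit. Clec9a, of cross-presenting dendritic cells, had a log2 fold change of 0.60. Over the list 12 genes were positive, against 50.6% of all genes, and 6 negative, against 49.4%. Among the negative ones, Ccl17, Cacnb3, Fscn1 and Ccl22 had day 14 over day 7 ratios of 0.789, 0.799, 0.837 and 0.838. Each of these ratios had a 95% interval that reached above 1. The list as a whole had a median of 0.09, which was 0.01 without replicate 1 of day 14 and 0.19 without replicate 3 of day 14.

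Class II antigen presentation genes, which those cells and B cells share, had a median of 0.04 over 11 members, each bounded within a factor of 2. Cytotoxic and NK cell genes had a median of 0.08 over 16 genes, from −0.04 without replicate 2 of day 14 to 0.21 without replicate 3 of day 14. None had an unadjusted p below 0.05, against 4.59% of all genes positive and 3.96% negative.

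Venule genes split in direction. Glycam1, a sialomucin that high endothelial venules secrete and that carries ligands of L-selectin, had 2007, 1470 and 1253 CPM at day 14, against 926, 620.3 and 853 CPM at day 7. Its log2 fold change was 0.98 ± 0.32 (SE), with a 95% interval of 0.30 to 1.66, and it rose in the 6-library fit at an adjusted p of 0.048. Its log2 fold change was 0.08 in NoImplant and −0.12 in ContraImplant nodes. Sele and Selp encode E-selectin and P-selectin, which inflamed endothelium displays to catch leukocytes. Sele had 1.12, 1.24 and 0.876 CPM at day 14, against 3.10, 1.53 and 1.79 CPM at day 7. Selp had 2.86, 3.82 and 2.67 CPM at day 14, against 6.15, 6.55 and 4.94 CPM at day 7. Neither overlapped between the days, and neither passed in the 6-library fit (adjusted p of 0.173 for Sele and 0.0638 for Selp). The 12 venule genes together had a median of 0.14, which was 0.09 without replicate 3 of day 14.

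Stromal genes leaned towards higher levels at day 14. Of 17 genes of fibroblastic reticular and follicular stroma 16 were positive, against 50.6% of all genes, with a median of 0.20. In ContraImplant nodes the median was 0.28, with 15 of 17 positive, against 41.6% of all genes, and 5 at an unadjusted p below 0.05, against 2.79%. In NoImplant nodes it was 0.26, with 14 of 17 positive, against 51.7%, and 7 at such a p, against 10%. Ccl21a, a chemokine that draws naive T cells and dendritic cells into the node, had 420, 421 and 388 CPM at day 14, against 311, 254.5 and 258 CPM at day 7. Il7, the survival cytokine of naive T cells, had 13.2, 13.5 and 14.2 CPM, against 8.70, 6.64 and 8.47 CPM at day 7. Both rose in the 6-library fit, at adjusted p of 0.0302 and 0.0327. Ccl21a has near-identical gene copies, so its count is uncertain. Cxcl12, another stromal chemokine, had a log2 fold change of 0.64. In NoImplant nodes Ccl21a, Il7 and Cxcl12 had log2 fold changes of 0.44, 0.48 and 0.98, and none of the 3 passed the edgeR test of the difference between the groups.

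Blood endothelial genes had a median of 0.28, with 14 of 16 positive, against 50.6% of all genes, and 5 at an unadjusted p below 0.05 and positive, against 4.59%. In NoImplant nodes the median of that list was 0.51, with 16 of 16 positive, against 51.7% of all genes, and 7 at such a p, against 10%. Sox18, a factor of vessel formation, had 63.5, 55.0 and 55.2 CPM at day 14, against 45.8, 31.5 and 35.0 CPM at day 7. Lymphatic endothelial genes had a median of 0.27 over 12 members, which was 0.11 without replicate 2 of day 14 and 0.43 without replicate 1 of day 14. The lymphatic median was 0.20 in ContraImplant and 0.52 in NoImplant nodes. Matrix genes had 0.26 over 22, with 0.15 without replicate 3 of day 14 and 0.41 without replicate 1 of day 14. Among them Thbs2, a matrix glycoprotein, had 31.1, 30.4 and 35.7 CPM at day 14, against 23.1, 12.4 and 19.4 CPM at day 7. Thbs2 was called by DESeq2 and not by the 6-library fit. In ContraImplant nodes the matrix list had a median of 0.71, with 16 of 22 genes at an unadjusted p below 0.05 and positive, against 2.79% of all genes. Complement genes had a median of 0.10 over 16, which was 0.05 without replicate 2 of day 7 and 0.25 without replicate 1 of day 14. The complement median was 0.14 in ContraImplant and 0.51 in NoImplant nodes.

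Genes of sugar and sterol metabolism stood slightly lower at day 14. Of 18 genes of glycolysis and hypoxia 16 were negative, against 49.4% of all genes, with a median of −0.15. Pfkp, a phosphofructokinase, had 128, 129.5 and 130.2 CPM at day 14, against 145, 155 and 153 CPM at day 7. Pkm, a pyruvate kinase gene, had 323, 319 and 339 CPM, against 361.5, 414 and 387 CPM at day 7. Cholesterol synthesis genes had a median of −0.25, which was −0.13 without replicate 2 of day 7. Of these, 13 of 14 were negative, against 49.4% of all genes. The medians in ContraImplant and NoImplant nodes were −0.18 and −0.23. Cyp51, a sterol demethylase, had 47.1, 52.2 and 64.5 CPM at day 14 and 63.6, 75.8 and 66.0 CPM at day 7, which overlapped. Ribosomal protein genes had a median of −0.01 over 18.

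Genes of fat and muscle, tissues that lie around a node, differed in level between libraries, and the source of those RNAs was not tested. The 15 adipocyte genes had a median of −1.01, with 14 of 15 negative, against 49.4% of all genes. Their summed level was 1820, 1050 and 1270 CPM at day 14, against 2200, 2880 and 3690 CPM at day 7. Lep, the fat hormone leptin, had 1.29, 0.193 and 0.876 CPM at day 14, against 7.55, 12.7 and 4.12 CPM at day 7. Scd1, a fatty acid desaturase, had 870, 603 and 746.5 CPM, against 1483, 1755 and 2331 CPM at day 7, and both fell in the 6-library fit. None of the 15 had an unadjusted p below 0.05, against 3.96% of all genes negative and 4.59% positive. The median was −1.68 without replicate 1 of day 14 and −0.64 without replicate 2 of day 14. The list stood lower at day 14, as the cell cycle list did, and its part in that result was not tested. In NoImplant nodes the summed fat level was 2040 to 7470 CPM, above the Implant day 14 libraries throughout.

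Skeletal muscle genes had a median of −1.66 over 13 members, and this rested on 1 library. Their summed level was 39.6, 35.6 and 34.3 CPM at day 14 and 34.4, 170 and 36.5 CPM at day 7. Without replicate 2 of day 7 the median was 0.11. With each Implant library left out in turn, the medians of the nerve, erythroid and epithelial lists ran from 0.06 to 0.25, from 0.28 to 0.75 and from 0.01 to 0.72.

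**Figure D4:**
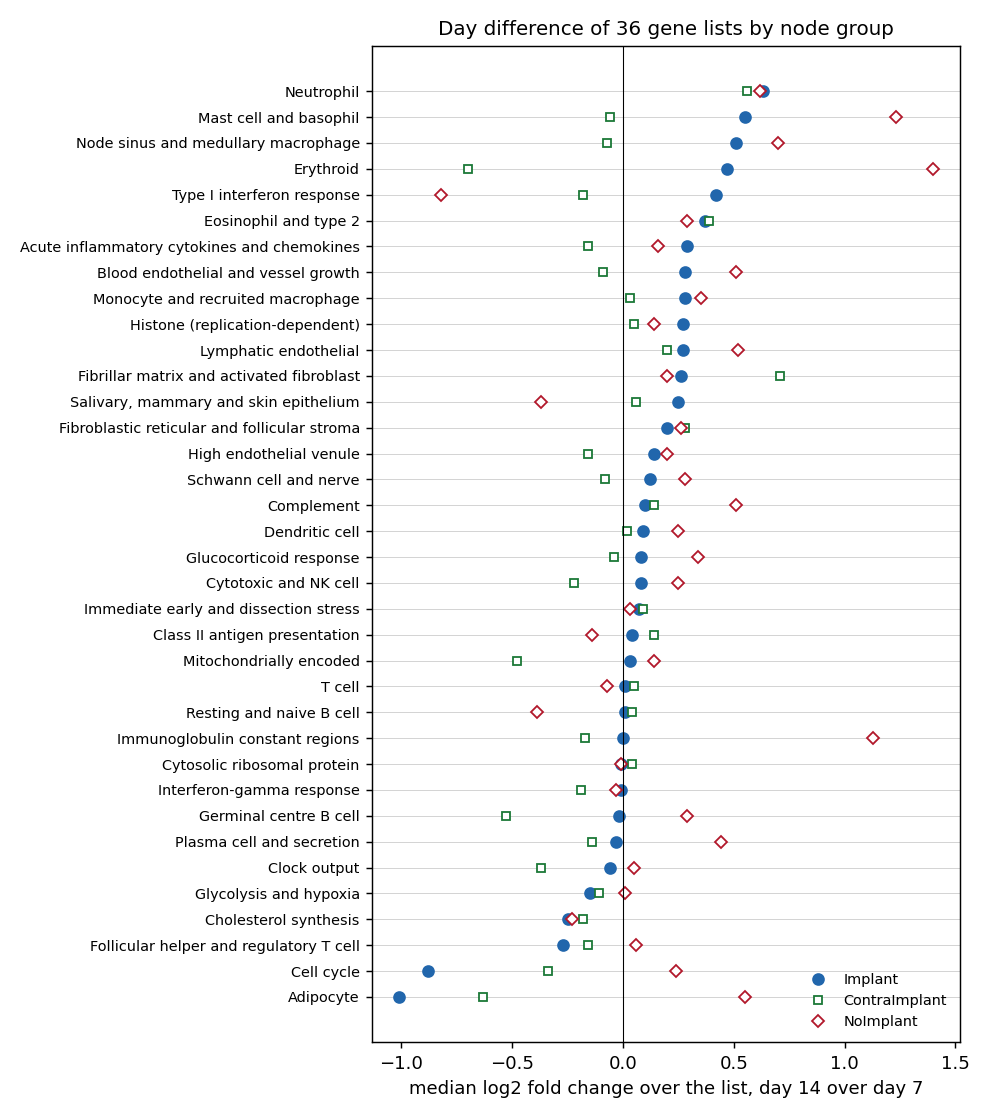
Median log2 fold change of day 14 over day 7 for 36 gene lists, with 1 marker each for Implant, ContraImplant and NoImplant nodes; the muscle and sex-linked lists are left out. The Implant markers run from −1.01 for the adipocyte list and −0.88 for the cell cycle list to 0.63 for the neutrophil list, and most lists lie near 0.

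Single genes of smallest p were named by rule, 6 in each direction, since none passed the main test. The 6 higher at day 14 were Nptx2, Rgs2, F3, Rbms3, Dclk1 and Stc1. Nptx2, a secreted pentraxin known from synapses (chr5:144545902-144557478), had 4.54, 3.63 and 3.50 CPM at day 14, against 1.32, 1.71 and 1.59 CPM at day 7. This was a ratio of 2.53 with a 95% interval of 1.83 to 3.49, and the edgeR adjusted p was 0.189. F3, the tissue factor that starts coagulation (chr3:121723537-121735048), had 15.2, 14.4 and 16.1 CPM at day 14, against 6.36, 5.21 and 7.97 CPM at day 7. Rgs2, which shortens G protein signals (chr1:143999338-144004161), had 63.9, 62.2 and 67.3 CPM at day 14, against 50.5, 43.0 and 46.9 CPM at day 7. In none of the 3 did the days overlap.

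These higher genes stood in the same direction in the nodes without surgery. The log2 fold change of Nptx2 was 1.34 in Implant, 1.04 in ContraImplant and 0.54 in NoImplant nodes. For F3 the 3 values were 1.22, 0.88 and 0.71. For Stc1, a secreted glycoprotein hormone (chr14:69029238-69041804), they were 0.72, 0.68 and 0.83. Rbms3, an RNA-binding protein (chr9:116572746-117629913), had 0.72, 0.34 and 0.61, and Dclk1, a microtubule-binding kinase (chr3:55242364-55539068), had 0.46, 0.34 and 0.11. All 6 rose in the 6-library fit, at adjusted p of 0.0298 to 0.0432, and by DESeq2.

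The 6 lower at day 14 were Ikzf2, described above, Dnph1, Xrcc3, Tnn, Smpd4 and Adamts8. Tnn, the matrix protein tenascin N (chr1:160085029-160153580), had 1.36, 1.93 and 2.21 CPM at day 14, against 4.96, 6.82 and 6.57 CPM at day 7. Its log2 fold change was −1.74 ± 0.34 (SE), with a 95% interval of −2.46 to −1.01. Adamts8, a secreted metalloprotease (chr9:30942562-30963838), had 3.11, 2.01 and 3.30 CPM at day 14, against 6.15, 8.35 and 8.86 CPM at day 7. Both were low at day 14 in all 3 nodes. In ContraImplant nodes their log2 fold changes were −0.15 and −0.33, and in NoImplant nodes −0.84 and −0.71.

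Dnph1, an enzyme that clears modified deoxynucleotides (chr17:46496711-46499624), had 2.80, 2.70 and 3.71 CPM at day 14, against 5.22, 6.78 and 6.65 CPM at day 7. Xrcc3, which acts in homologous recombination (chr12:111803192-111813873), had 15.5, 15.6 and 14.4 CPM, against 22.7, 20.7 and 21.8 CPM at day 7. Smpd4, a sphingomyelinase (chr16:17619354-17644828), had 39.9, 42.7 and 42.6 CPM, against 48.1, 51.8 and 50.02 CPM at day 7. The log2 fold changes in ContraImplant and NoImplant nodes were −0.26 and 0.15 for Dnph1. They were −0.26 and −0.22 for Xrcc3, and −0.15 and −0.14 for Smpd4. For Xrcc3 and Smpd4 the days did not overlap in any group, while for Dnph1 they overlapped in ContraImplant and NoImplant nodes. Of the 6 lower genes, Smpd4 alone did not pass in the 6-library fit (adjusted p of 0.1), and all 6 were called by DESeq2.

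**Figure D5:**
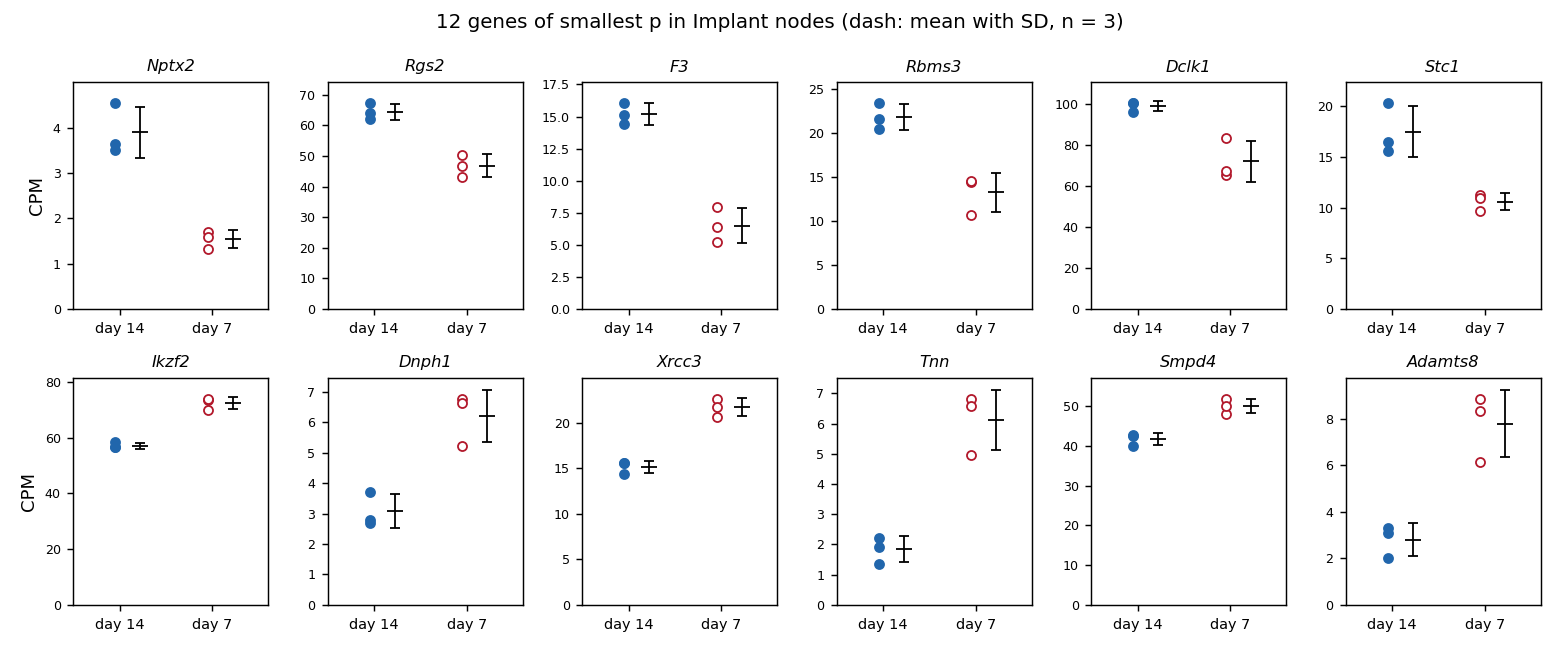
CPM in the 6 Implant libraries of the 12 genes of smallest p, with points for libraries, a dash for the mean and bars for the SD (n = 3), day 14 on the left in each panel. The upper 6 genes are higher at day 14 and the lower 6 lower, with no overlap between the days in any panel.

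Whether the day difference in Implant nodes departed from that in other nodes was tested as an interaction. Against NoImplant nodes edgeR called 0 of 18312 genes, with 921 at an unadjusted p below 0.05 and a smallest adjusted p of 0.278, and DESeq2 called 5. Against ContraImplant nodes edgeR called 0, with 334 at an unadjusted p below 0.05, and DESeq2 called 0.

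Gapt, an adaptor protein of B and myeloid cells, had the smallest p against NoImplant nodes. It had 15.2, 17.2 and 17.3 CPM in Implant day 14 nodes, against 11.8, 12.3 and 12.6 CPM in Implant day 7 nodes. The NoImplant nodes had 10.1, 9.73 and 10.4 CPM at day 14, against 13.8, 13.1 and 14.9 CPM at day 7. Day 14 was higher in Implant nodes and lower in NoImplant nodes, and the difference of changes was 0.90 with a 95% interval of 0.59 to 1.21. Kmo, of tryptophan breakdown, and Rnase6, a secreted ribonuclease, were the next on the positive side, at 0.59 and 0.53.

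On the negative side Il13ra2, a decoy receptor of interleukin 13, had 10.4, 13.9 and 12.8 CPM in Implant day 14 nodes, against 14.3, 15.0 and 14.3 CPM in Implant day 7 nodes. In NoImplant nodes it had 14.3, 12.9 and 14.7 CPM at day 14, against 10.2, 8.83 and 8.06 CPM at day 7. Day 14 was lower in Implant nodes and higher in NoImplant nodes, with a difference of changes of −0.87. Zbtb32, a transcriptional repressor of activated lymphocytes, had 6.32, 6.29 and 7.09 CPM in Implant day 14 nodes, against 11.8, 15.5 and 12.8 CPM in Implant day 7 nodes. In NoImplant nodes it had 10.9, 7.88 and 5.58 CPM at day 14, against 6.76, 6.51 and 4.27 CPM at day 7. The difference of changes was −1.49 with a 95% interval of −2.19 to −0.80. Dnph1, named above, was the next, at −1.17.

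Against the ContraImplant nodes of the same mice the genes of smallest p were Ptgds, Rgs12 and Zfp979 on the positive side and Thbs3, Fjx1 and Ssc5d on the negative side. Fjx1, a Golgi kinase related to the fly gene four-jointed, had 3.18, 3.98 and 5.76 CPM in Implant day 14 nodes, against 8.78, 7.90 and 8.55 CPM in Implant day 7 nodes. The ContraImplant nodes had 3.96, 3.74 and 3.27 CPM at day 14, against 3.10, 1.96 and 3.13 CPM at day 7. The Implant day 7 nodes thus stood above every other one of these libraries. Ptgds, which makes prostaglandin D2, had 2.27, 2.32 and 1.38 CPM in Implant day 14 nodes, against 0.636, 0.628 and 0.855 CPM in Implant day 7 nodes. The difference of changes was −1.38 for Fjx1 and 1.83 for Ptgds, and no gene passed.

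The other groups' own day comparisons set the scale. In ContraImplant nodes edgeR called 0 genes, with 970 at an unadjusted p below 0.05, and the ranges of the days did not overlap for 3.66% of genes with day 14 above and 3.43% with day 14 below. In NoImplant nodes it called 3 genes (0.0164%), all higher at day 14, with 3456 at an unadjusted p below 0.05, or 10% of all genes positive and 8.86% negative. The 3 were CT010467.1, Gm23935 and Prcp, named because they are few. CT010467.1 is annotated as rRNA, and Gm23935 as a miRNA gene of 57 exonic bases. CT010467.1 had 7444, 5426 and 8715 CPM in NoImplant day 14 nodes, against 2137, 1850 and 1994 CPM in NoImplant day 7 nodes. The share of genes at an unadjusted p below 0.05 was 8.55% in Implant nodes, 5.3% in ContraImplant nodes and 18.9% in NoImplant nodes.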

How the data were processed

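Counts of 18 mouse lymph node libraries were used. According to the labels' protocols, frozen nodes were lysed in RLT and 100 ng of RNA went into NEBNext Ultra II libraries. Per the submitters' processing notes, the tools were fastp and STAR, with mm10 as the build. The deposited values are raw whole-number counts for each gene. Which program counted the reads, whether it used strand, and how it treated reads with several matches is not given in the sources used here, so antisense, overlapping and near-identical genes are uncertain. Identifiers were looked up in GENCODE M21 (mm10), which held 54723 of 54752, and positions are 1-based.

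The tests ran in R 4.3.3 with edgeR 4.0.16. After filterByExpr (minimum count 10) and TMM scaling, the 6 groups entered 1 quasi-likelihood fit with a shared spread, and calls needed a Benjamini-Hochberg adjusted p below 0.05. Implant and ContraImplant nodes of 1 mouse entered that fit without a term for mouse. SE was taken as the size of the log2 fold change divided by the root of F. List levels are means of log2 CPM with a prior count of 2. DESeq2 1.42.0 and other settings served as alternatives. The code was tried on simulated data first. Library pairs within a group differed by more than sampling noise.

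Replicates are separate animals by the labels. Same-numbered libraries of the 2 Implant days came from different mice, and the correlations of their deviations were −0.07, −0.06 and 0.09. For Implant and ContraImplant nodes of 1 mouse they were 0.11 to 0.4. Other pairs from different mice reached 0.13 between the 2 Implant days and 0.1 between Implant and ContraImplant nodes. The lower same-mouse values thus stood little apart.

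The comparison and the 38 gene lists, written from textbook knowledge, were chosen with earlier results of these data known. Genes were named by rule: the 6 of smallest p each way, 3 each way per interaction (both with a mean count of 50 or more in the higher group), and up to 4 of smallest p per list, leaving out predicted genes, pseudogenes and receptor segments. Not all of these are printed. Promoters are from RefSeq. The values of 1 marker gene are not reported here.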

Additional observations from a re-analysis of the deposited data

How the results depend on the processing

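The Implant count of 0 held under RLE factors, library totals alone, no filter or a stricter one, a threshold of 0.01, the replicate block and each library left out (0 to 0), and became 53 with DESeq2 and 178 with the 6 Implant libraries alone. For ContraImplant the count of 0 became 10 with no filter and 66 with DESeq2, and ran from 0 to 12 with a library left out (12 without ContraImplant day 14 replicate 1, 6 without day 7 replicate 3). For NoImplant the 3 became 23 with no filter, 791 with DESeq2, 0 with only its own libraries and 1 at 0.01, and ran from 0 (without day 7 replicate 2) to 327 (without day 14 replicate 1), with 7 without day 14 replicate 3 and 5 without day 7 replicate 3. The difference between Implant and NoImplant changes went from 0 to 5 with DESeq2 and stayed at 0 to 0 with a library left out, as did that with ContraImplant (0 to 0). The cause of these moves was not tested.

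With the replicate block the Implant comparison kept 0 calls, and the paired fit by mouse kept 0 for Implant against ContraImplant changes. No call changed with a block.

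Of the genes followed, 6 reversed when 1 library was left out, and none of them had passed. Over the libraries left out, Cd3g ran from −0.01 (without Implant day 14 replicate 1) to 0.23, and without Implant day 14 replicate 2 the lowest values were reached by Ighe (−1.49 to 1.62) and Ifit3b (−0.03 to 1.64). Without Implant day 7 replicate 2 the turning ends were those of Rgs13 (0.00 to 1.03), Acta1 (−4.49 to 0.19) and Actn3 (−3.56 to 0.45). At these depths genes near 1 CPM kept wide intervals.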

Other observations

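Genes of the daily clock and of the response to glucocorticoid, which vary with the hour and with stress, were not among the subjects above. Per1, a clock repressor that glucocorticoid also induces, had 68.6, 76.0 and 71.4 CPM in Implant day 14 nodes, against 83.6, 88.2 and 90.5 CPM in Implant day 7 nodes. Fkbp5, a chaperone of the glucocorticoid receptor, had 88.3, 100.2 and 98.6 CPM at day 14, against 103, 120 and 127 CPM at day 7. The ranges did not overlap for either, and neither passed the edgeR test (adjusted p of 0.487 for Per1 and 0.479 for Fkbp5) or the 6-library fit. The 16 clock genes had a median log2 fold change of −0.06 and the 10 glucocorticoid genes 0.08, with 5 in each direction. Without Implant day 7 replicate 1 the glucocorticoid median was −0.08, and without day 7 replicate 3 it was 0.31. The clock median was −0.12 without Implant day 7 replicate 2 and −0.01 without day 7 replicate 3. Times of dissection were not used here.

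Lif, a cytokine of the interleukin 6 family, had 3.98, 4.59 and 3.88 CPM in Implant day 14 nodes, against 5.73, 6.46 and 7.62 CPM in Implant day 7 nodes. Nlrp3, the inflammasome sensor, stood the other way, with 5.38, 8.61 and 6.55 CPM at day 14, against 5.09, 3.59 and 3.96 CPM at day 7. Neither overlapped between the days, and neither passed. The list of 13 acute inflammatory genes they belong to had a median of 0.29, which was 0.05 without Implant day 7 replicate 2 and 0.45 without Implant day 7 replicate 1.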
